A study of Mus musculus with 6 samples.

Results

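The genes described here are 35 markers of white blood cells, read in RNA from mouse pancreatic islets. They were chosen by symbol as markers of macrophages, dendritic cells, T cells and B cells, and all 35 were present among the 23420 genes of the deposited count table. A filter on low counts left 32 of them for testing, since Cd3d, Cd3e and Cd8a were too low to pass. Islets were isolated from C57BL/6J mice. Mice labelled OIO, for overfeeding-induced obesity, received Ensure, a liquid diet, by gastric infusion at 13 to 18.5 kcal per day for 9 days. Control mice received saline by gastric infusion for 9 days. Each group held 3 libraries of polyadenylated RNA. The labels do not say whether each library came from a separate mouse or from pooled mice, and the p-values below therefore reflect variation among libraries that could be technical. Age and sex are not given in the sources used here.

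Islets hold a resident population of macrophages, which sit beside the endocrine cells and capillaries and present antigen on MHC class II molecules. These cells are known to express F4/80 (the product of Emr1, now named Adgre1) and CD11c (the product of Itgax). T and B lymphocytes are scarce in islets of mice without autoimmunity and abundant in lymph nodes, which lie close to the pancreas. T cells are defined by the CD3 chains of their antigen receptor, and B cells by CD79A and CD79B, which transmit the signal of theirs, and by CD20, the product of Ms4a1.

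Total counts ranged from 20968058 in OIO replicate 1 to 48178375 in OIO replicate 2. Levels are read counts relative to library size (CPM) after edgeR scaling of library sizes (TMM). Fold changes are log2 values, positive where OIO was higher, each followed by its standard error (SE). For scale, the islet hormone genes Ins1, Ins2, Gcg, Sst, Ppy and Iapp summed to between 269740 and 328232 CPM in the 6 libraries. The 35 leukocyte genes together summed to between 932 CPM in control replicate 2 and 1287 CPM in OIO replicate 1. In whole-tissue RNA of this kind, more cells of a type and more RNA per cell cannot be told apart.

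None of the 32 tested leukocyte genes passed an adjusted p of 0.05 in edgeR's quasi-likelihood test, in either direction. Over all 14903 genes tested, 7.37% passed, 4.54% as higher and 2.84% as lower in OIO. At an unadjusted p under 0.05 there were 3 leukocyte genes, Cd74, Laptm5 and Lck, all higher in OIO. Of all genes tested, 23.4% reached that level in either direction and 11.8% as higher in OIO. The same 3 genes were those whose groups did not overlap, where the share among all genes was 29.3%, 14.1% with OIO higher and 15.1% with OIO lower. DESeq2 called 1 member, Cd74, with 6 at an unadjusted p under 0.05, and limma voom called none, with 5. Fitted fold changes were above 0 for 25 of 32 members, with a median of 0.19, while 47.5% of all genes were above 0 and their median was −0.012. Members that mark the same cell are not independent of each other, so these counts describe the list only. Without control replicate 3, 4 of 32 tested members passed, Ptprc, Coro1a, Lyz2 and H2-Ab1, all higher in OIO. Over the fits with 1 library left out, that fit among them, 336 to 560 of all genes passed as higher and 112 to 303 as lower. The share of all genes in the fit without control replicate 3 is not given separately here. No member passed when any other single library was left out.

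**Figure D1:**
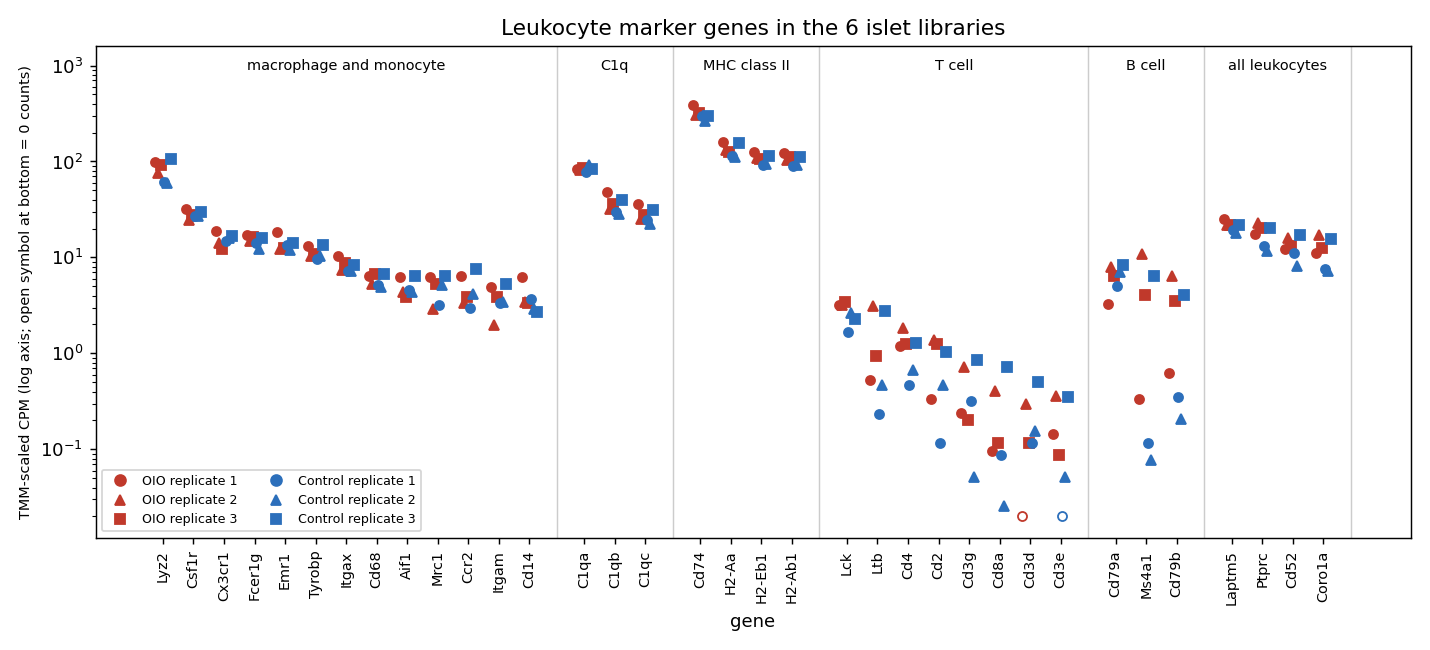
TMM-scaled CPM on a log axis for each of the 35 leukocyte genes in the 3 OIO libraries (red) and 3 control libraries (blue), grouped by cell type and ordered by mean, with open symbols for 0 counts. C1q and MHC class II genes lie close together in all libraries. Some macrophage genes spread more, such as Ccr2 from 2.99 CPM in control replicate 1 to 7.62 CPM in control replicate 3. Ms4a1 runs from 0.0771 CPM in control replicate 2 to 10.98 CPM in OIO replicate 2.

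Per transcript length, the leukocyte RNA of the islets was led by genes of antigen presentation and of macrophages. Levels between genes were compared as TPM, a length-corrected share of all transcripts, computed from the counts and the union of each gene's annotated exons. Cd74, the invariant chain that escorts MHC class II molecules, averaged 431 TPM and was the highest of the 35. It was followed by C1qa, a chain of complement C1q, at 187, Lyz2, the lysozyme of phagocytes, at 144, and the class II beta chain H2-Eb1 at 127. Emr1 averaged 9.89 TPM and Csf1r, the receptor for macrophage colony-stimulating factor, 11.3. At the other end stood the T cell receptor chains, with Cd3g at 0.279, Cd3d at 0.252 and Cd3e at 0.093 TPM, and Cd8a at 0.153. Emr1, Csf1r, Lyz2 and C1qa were therefore well detected in all 6 libraries, and the CD3 chains and Cd8a were near the limit of detection. The 2 classes overlapped in level. The T cell gene Lck averaged 2.15 TPM, above the macrophage and monocyte genes Mrc1 at 1.76, Itgam at 1.75 and Ccr2 at 1.62. Cd3d had 0 counts in OIO replicate 1 and Cd3e had 0 in control replicate 1, which allows up to 0.144 and 0.0872 CPM. These limits cover counting error only. Ptprc, at 2.22 TPM, is understated on this scale, since its annotated exons add up to 18313 bases. Other genes may be understated too, with annotated exons of 4080 bases for Cd3e and 3798 for H2-Aa. In CPM, H2-Aa averaged 133 and exceeded C1qa at 83.9.

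**Figure D2:**
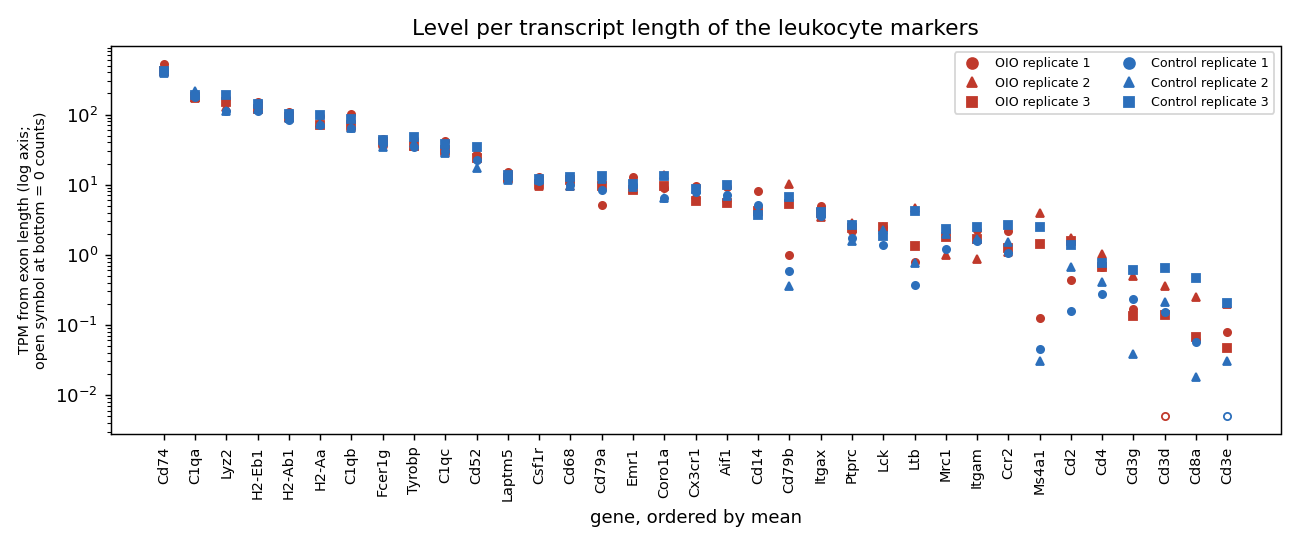
Level per transcript length (TPM, log axis) of the 35 leukocyte genes, ordered by mean, with 1 point per library. The order runs from Cd74 at a mean of 431 TPM to Cd3e at 0.093 TPM, and the points of 1 gene spread most for Ms4a1, Cd79b, Ltb and the CD3 and CD8 chains.

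No marker of macrophages and monocytes passed the test between overfed and control islets. Of 13 genes, 8 had a fold change above 0 and 5 below. Their median was 0.024 and ranged from −0.071 without OIO replicate 1 to 0.22 without OIO replicate 2. Csf1r had 32.2, 24.7 and 27.5 CPM in OIO replicates 1, 2 and 3 and 27.3, 26.7 and 29.9 CPM in control replicates 1, 2 and 3. Its groups overlapped, its log2 fold change was 0.0018 (SE 0.095, adjusted p = 0.99) and the 95% interval ran from −0.21 to 0.21. Emr1, on chromosome 17 from 57358691 to 57483527 in GRCm38, had 18.3, 12.4 and 12.6 CPM in OIO and 13.5, 12.1 and 14.1 in control libraries. OIO replicate 1 was the highest and the other 5 lay close together, giving a fold change of 0.11 (SE 0.15, adjusted p = 0.72, interval −0.23 to 0.45). Cx3cr1, the fractalkine receptor of monocytes and tissue macrophages, had 18.8, 14.3 and 12.2 CPM in OIO and 14.7, 15.8 and 16.7 CPM in control libraries, with the OIO values on both sides of the control values (−0.074, SE 0.14, adjusted p = 0.81).

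Lyz2 was less even. It had 98.5, 76.7 and 92.5 CPM in OIO and 61.5, 60.1 and 105 CPM in control libraries, so that control replicate 3 exceeded all others while control replicates 1 and 2 were the lowest. The fold change was 0.23 (SE 0.27, adjusted p = 0.68), and without control replicate 3 it was 0.55 (adjusted p = 0.023). Both libraries with the most Lyz2, control replicate 3 and OIO replicate 1, were also the highest for Ccr2, the chemokine receptor of inflammatory monocytes, at 7.62 and 6.42 CPM where the others had 2.99 to 4.11 CPM. Itgam (CD11b), Mrc1 (the mannose receptor CD206), Aif1 and Tyrobp, a signalling adaptor, were likewise highest in control replicate 3 and next highest in OIO replicate 1. The 13 genes summed to 245, 182 and 208 CPM in OIO and 171, 169 and 239 CPM in control libraries. A list of 12 mesenchymal genes (fibroblasts, pericytes and smooth muscle) had its highest sums in the same libraries, 792 CPM in control replicate 3 and 493 in OIO replicate 1, where the others had 301 to 373. All 12 of these genes were tested, with the lowest p in Myh11 at −0.28, Dcn at −0.74 and Pdgfrb at −0.19 (adjusted p 0.22, 0.54 and 0.56), none passed, also not at an unadjusted p under 0.05, and the part of such cells in the macrophage values was not tested.

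Cd14, the lipopolysaccharide co-receptor, had the largest fold change of the macrophage genes, 0.47 (SE 0.26, adjusted p = 0.31, interval −0.11 to 1.04). Its 6.23 CPM in OIO replicate 1 stood apart from a range of 2.69 to 3.69 CPM in the other 5 libraries. Itgax, which marks dendritic cells and islet macrophages, was at 0.20 (SE 0.14, adjusted p = 0.41). Fcer1g, the Fc receptor gamma chain, was at 0.19 (SE 0.11, adjusted p = 0.33), and Cd68, a lysosomal protein of macrophages, at 0.12 (SE 0.16, adjusted p = 0.69). The remaining macrophage genes lay between −0.20 for Itgam and 0.024 for Tyrobp. In the annotation, exons of Csf1r overlap those of Hmgxb3 on the opposite strand and exons of Itgam overlap a predicted gene on the same strand, so the division of reads there is uncertain.

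The 3 chains of complement C1q, which islet and other tissue macrophages produce, did not pass. C1qa was among the steadiest members, with 82.9, 81.4 and 86.2 CPM in OIO and 77.0, 92.3 and 83.7 CPM in control libraries. Control replicate 2 was the highest and control replicate 1 the lowest, the fold change was −0.014 (SE 0.069, adjusted p = 0.93), and the 95% interval of −0.17 to 0.14 was the narrowest of the 32. C1qb had 47.8, 31.9 and 36.2 CPM against 29.8, 28.7 and 40.1 CPM in control libraries (0.22, SE 0.20, adjusted p = 0.57). C1qc had 36.0, 25.4 and 27.9 CPM against 24.4, 22.0 and 30.9 CPM (0.20, SE 0.17, adjusted p = 0.55). C1qb and C1qc kept a nearly fixed ratio, between 1.22 and 1.33 in the 6 libraries, and both were highest in OIO replicate 1 and next in control replicate 3. C1qa did not share that order, and its ratio to C1qc ranged from 2.30 in OIO replicate 1 to 4.19 in control replicate 2. The genes lie side by side on chromosome 4, within 136880129 to 136898803 in GRCm38.

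All 4 genes of MHC class II presentation had fold changes above 0, between 0.12 and 0.24, and none passed. Cd74 had 391.9, 306 and 321 CPM in OIO and 299, 265 and 298 CPM in control libraries. The OIO values all exceeded the control values, with the nearest at 306 and 299, and the fold change was 0.24 (SE 0.094, adjusted p = 0.16, interval 0.030 to 0.46). In DESeq2 it passed with an adjusted p of 0.047, and over all alternatives its adjusted p ranged from 0.047 to 0.36. H2-Aa, the alpha chain of I-A, had 160, 130 and 126 CPM in OIO and 113, 112 and 156 CPM in control libraries, overlapping through control replicate 3 (0.12, SE 0.16, adjusted p = 0.71). H2-Eb1, the beta chain of I-E in strains that make it, had 127, 108 and 107 CPM against 90.9, 93.6 and 115 CPM (0.19, SE 0.10, adjusted p = 0.31). H2-Ab1, the beta chain of I-A, was at 0.20 (SE 0.091, adjusted p = 0.23), and without control replicate 3 at 0.30 (adjusted p = 0.043). The 3 H2 genes kept close ratios from library to library. The ratio of H2-Eb1 to H2-Ab1 stayed between 0.964 and 1.04, and that of H2-Aa to H2-Ab1 between 1.13 and 1.40. Cd74 departed from them in part. Its ratio to H2-Ab1 ran from 2.67 in control replicate 3 to 3.35 in control replicate 1, and these libraries had almost equal Cd74 while all 3 H2 genes were higher in control replicate 3.

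Class II genes are known to share promoter elements, the X box and the Y box, that recruit the transactivator CIITA, and the upstream sequence of the 2 class II members with a RefSeq promoter entry is shown to place these elements beside those levels. Each sequence is the 150 bases before the annotated start in GRCm38.p6, from chr17:34287824-34287973 on the minus strand for H2-Aa and chr17:34305717-34305866 on the plus strand for H2-Eb1, written 5′ to 3′. Capitals mark GCAAC, a core found in X boxes, and CTGATTGG, the Y box with its inverted CCAAT.
H2-Aa: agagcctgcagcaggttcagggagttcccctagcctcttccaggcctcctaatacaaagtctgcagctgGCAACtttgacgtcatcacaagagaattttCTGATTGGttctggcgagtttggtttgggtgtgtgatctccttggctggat
H2-Eb1: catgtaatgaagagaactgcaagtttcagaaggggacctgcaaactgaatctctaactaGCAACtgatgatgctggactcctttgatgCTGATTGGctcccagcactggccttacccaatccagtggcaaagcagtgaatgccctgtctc
The gap between both motifs was 25 bases in H2-Aa and 24 in H2-Eb1, and the Y box began 51 and 62 bases before the start. Searched on both strands in the same 150 bases of 32851 RefSeq promoters, CTGATTGG was found in 3.16%, GCAAC in 19.6%, and GCAAC followed after 24 or 25 bases by CTGATTGG in 5 promoters, or 0.0152%. The motifs do not overlap, and this spacing was chosen after the sequences were seen. Of 23 members with a promoter entry, CTGATTGG was found only in H2-Aa and H2-Eb1, and GCAAC in 6. These matches describe the letters and do not show binding.

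**Figure D3:**
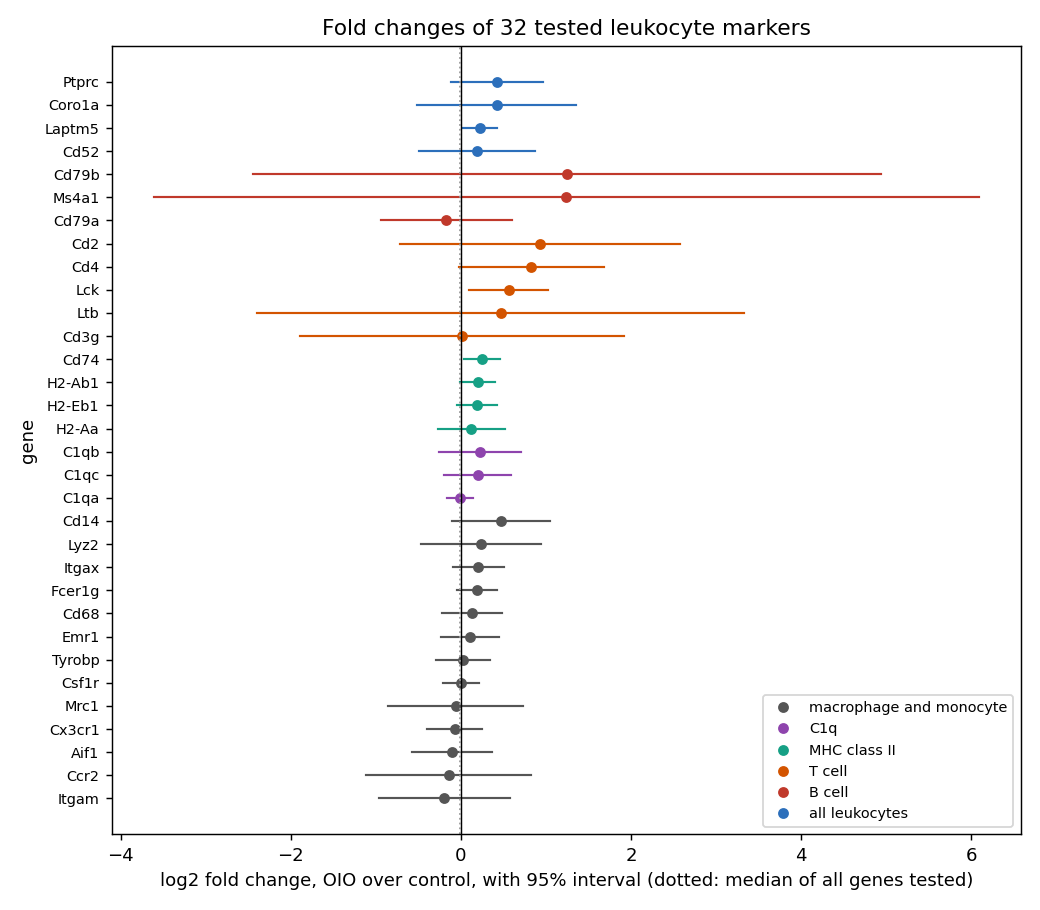
Log2 fold change of OIO over control (x axis) with its 95% interval for the 32 tested leukocyte genes, coloured by cell type, with a dotted line at the median of all genes tested. The interval of C1qa is the narrowest (−0.17 to 0.14), that of Cd74 lies above 0 (0.030 to 0.46), and those of Ms4a1 (−3.61 to 6.09) and Cd79b (−2.45 to 4.94) are the widest.

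B cell markers varied more between libraries of the same group than between the groups. Ms4a1, on chromosome 19 from 11249675 to 11266241 in GRCm38, had 0.335, 10.98 and 4.02 CPM in OIO replicates 1, 2 and 3 and 0.116, 0.0771 and 6.48 CPM in control replicates 1, 2 and 3. These values rest on 7, 520 and 140 counts in OIO and 4, 3 and 260 in control libraries, so it was high in OIO replicates 2 and 3 and control replicate 3 and near the limit of detection in the rest. Cd79b, on chromosome 11 from 106311341 to 106314762, followed the same libraries, with 0.623, 6.46 and 3.51 CPM in OIO and 0.349, 0.206 and 4.01 CPM in control libraries. The highest control library exceeded the lowest by 84.0-fold for Ms4a1 and 19.5-fold for Cd79b, and in OIO the spans were 32.8-fold and 10.4-fold. Ranked by spread within groups, Ms4a1 was number 9 and Cd79b number 29 of 14903 genes. Cd3g, Ltb and Cd2 were also among the first 100, at 66, 58 and 92.

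The difference between overfed and control islets in these genes was not resolved. Ms4a1 had a fold change of 1.24 (SE 1.79, adjusted p = 0.75) and Cd79b of 1.25 (SE 1.37, adjusted p = 0.66). Leaving out 1 library moved the size in either direction, depending on the library. Without control replicate 3 Ms4a1 was at 5.76 (adjusted p = 0.26) and Cd79b at 3.73 (adjusted p = 0.18). Without OIO replicate 2 they were at 0.032 and 0.49. The value also depended on the method. Limma voom gave 3.06 for Ms4a1 (adjusted p = 0.33) and 2.18 for Cd79b (adjusted p = 0.27), and in the authors' deposited table they stood at 2.95 and 2.12 (adjusted p 0.33 and 0.29). Both were above 0 in all alternatives. With OIO replicate 1 and control replicate 3 both left out, Cd79b passed at 4.199 (adjusted p = 0.0021) and Ms4a1 stood at 6.28 (adjusted p = 0.063).

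Cd79a, the partner chain of Cd79b, did not share this order. It had 3.30, 7.96 and 6.44 CPM in OIO and 5.06, 7.09 and 8.24 CPM in control libraries, and so stayed above 3 CPM where Cd79b and Ms4a1 were almost undetected. The ratio of Cd79a to Cd79b was between 1.23 and 2.06 in OIO replicates 2 and 3 and control replicate 3, and 5.31, 14.5 and 34.5 in OIO replicate 1 and control replicates 1 and 2. No other annotated gene overlaps Cd79a. Its fold change was −0.17 (SE 0.32, adjusted p = 0.81). Ebf1, a transcription factor of B cells that other cell types also express, behaved likewise, at 3.49 to 5.46 CPM in all 6 libraries, and was singled out after its values were seen.

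T cell markers were low, and several of them, but not all, were highest in OIO replicate 2 and control replicate 3. Ltb, the lymphotoxin beta of lymphocytes, had 0.527, 3.10 and 0.949 CPM in OIO and 0.232, 0.463 and 2.74 CPM in control libraries, and was highest in OIO replicate 2 and control replicate 3 (0.47, SE 1.11, adjusted p = 0.86). Cd4, the co-receptor of helper T cells that some myeloid cells also carry, had 1.197, 1.84 and 1.26 CPM in OIO and 0.465, 0.668 and 1.30 CPM in control libraries (0.83, SE 0.38, adjusted p = 0.23). Control replicate 3 alone overlapped the OIO values, and with 1 library left out the fold change ran from 0.56 to 1.35. Cd8a, the co-receptor of cytotoxic T cells, and the chains Cd3d, Cd3e and Cd3g each had their highest 2 values in OIO replicate 2 and control replicate 3, and no library exceeded 0.847 CPM for any of them. Cd2, an adhesion molecule of T and other lymphocytes, reached 1.37, 1.26 and 1.02 CPM in OIO replicates 2 and 3 and control replicate 3 and 0.116 to 0.463 CPM in the others (0.93, SE 0.71, adjusted p = 0.49). Its fold change ran from 0.47 without control replicate 1 to 1.80 without control replicate 3, and without OIO replicate 1 and control replicate 3 together it passed at 2.16 (adjusted p = 0.042).

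Lck, the kinase that starts T cell receptor signalling, was higher and steadier than the other T cell genes. It had 3.16, 3.21 and 3.42 CPM in OIO and 1.69, 2.65 and 2.29 CPM in control libraries, and all OIO values exceeded all control values. Its fold change of 0.56 (SE 0.21) had the lowest adjusted p of the 32 genes, 0.14, and the 95% interval ran from 0.10 to 1.02. Over the alternatives its adjusted p ranged from 0.11 to 0.30. Unlike the CD3 chains, Lck was not highest in OIO replicate 2 and control replicate 3, and its ratio to Cd3g ranged from 2.71 in control replicate 3 to 51.5 in control replicate 2.

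Genes expressed by all leukocytes lay between the macrophage and lymphocyte patterns. Ptprc, which encodes CD45 and lies on chromosome 1 from 138062861 to 138175708, had 17.6, 23.0 and 20.1 CPM in OIO and 13.3, 11.8 and 20.4 CPM in control libraries. OIO replicate 2 was the highest, as for Ms4a1, and control replicate 3 lay within the OIO range. The fold change was 0.42 (SE 0.22, adjusted p = 0.32), and 0.70 (adjusted p = 0.014) without control replicate 3. Coro1a, an actin regulator of leukocytes, was at 0.42 (SE 0.37, adjusted p = 0.57), and at 0.87 (adjusted p = 0.034) without that library. Cd52 had 12.2, 15.9 and 13.3 CPM against 11.2, 8.17 and 17.1 CPM (0.19, SE 0.28, adjusted p = 0.75). Laptm5, a lysosomal membrane protein of leukocytes, had 25.2, 22.0 and 22.0 CPM in OIO and 19.2, 18.0 and 21.7 CPM in control libraries. Its groups were separated by a narrow margin, and its fold change was 0.23 (SE 0.090, adjusted p = 0.16, interval 0.028 to 0.43). Exons of Cd52 and Coro1a overlap those of a gene on the opposite strand.

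**Figure D4:**
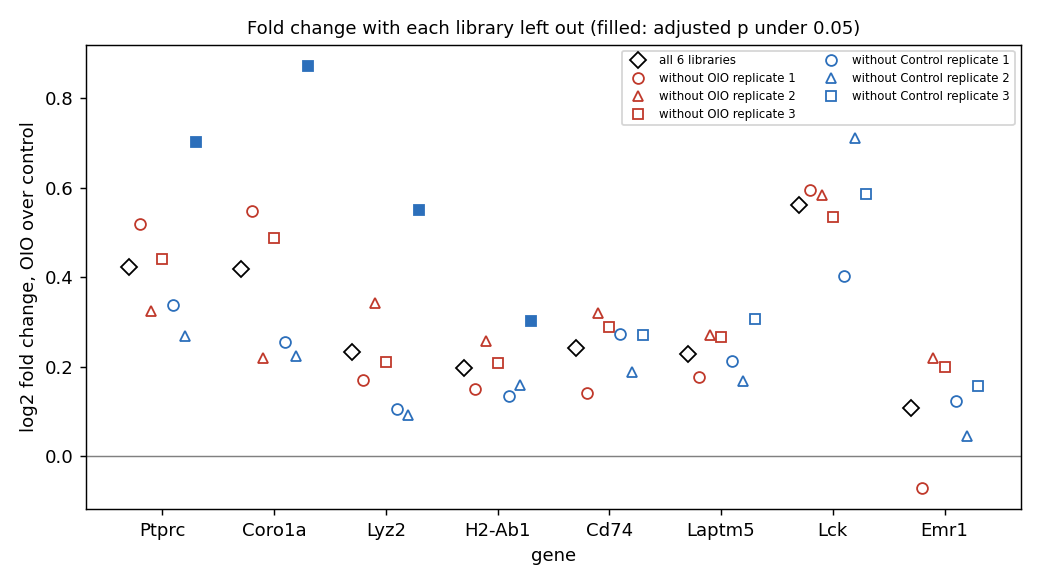
Log2 fold change of OIO over control for 8 leukocyte genes with all 6 libraries (diamonds) and with each library left out, filled where the adjusted p was under 0.05. Filled points occur only without control replicate 3, for Ptprc (0.70), Coro1a (0.87), Lyz2 (0.55) and H2-Ab1 (0.30).

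Other B cell genes followed the same 3 libraries as Ms4a1. Of 22 further B cell genes, 20 were tested and none passed, also not at an unadjusted p under 0.05. All 20 had a fold change above 0, with a median of 1.22, where 47.5% of all genes were above 0. These genes varied together across libraries and are not independent, so this count describes the list only. OIO replicates 2 and 3 and control replicate 3 were the 3 highest libraries for 18 of these 20, while that was so for 3.67% of all genes tested. This set of 3 libraries was taken from the order of Ms4a1 in the same data. The exceptions to the order were Ebf1 and Igj. By the lowest p, the leading genes were Mzb1 at 2.80 (SE 1.17, adjusted p = 0.25), Pax5 at 2.03 (adjusted p = 0.37) and Pou2af1 at 2.17 (adjusted p = 0.40). Mzb1 and Igj, which serve antibody assembly in plasma cells, were highest in OIO replicate 3, at 8.85 and 58.8 CPM. The other 5 libraries had 0.206 to 2.15 CPM of Mzb1 and 6.65 to 12.7 CPM of Igj. Igj was named after its values were seen.

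**Figure D5:**
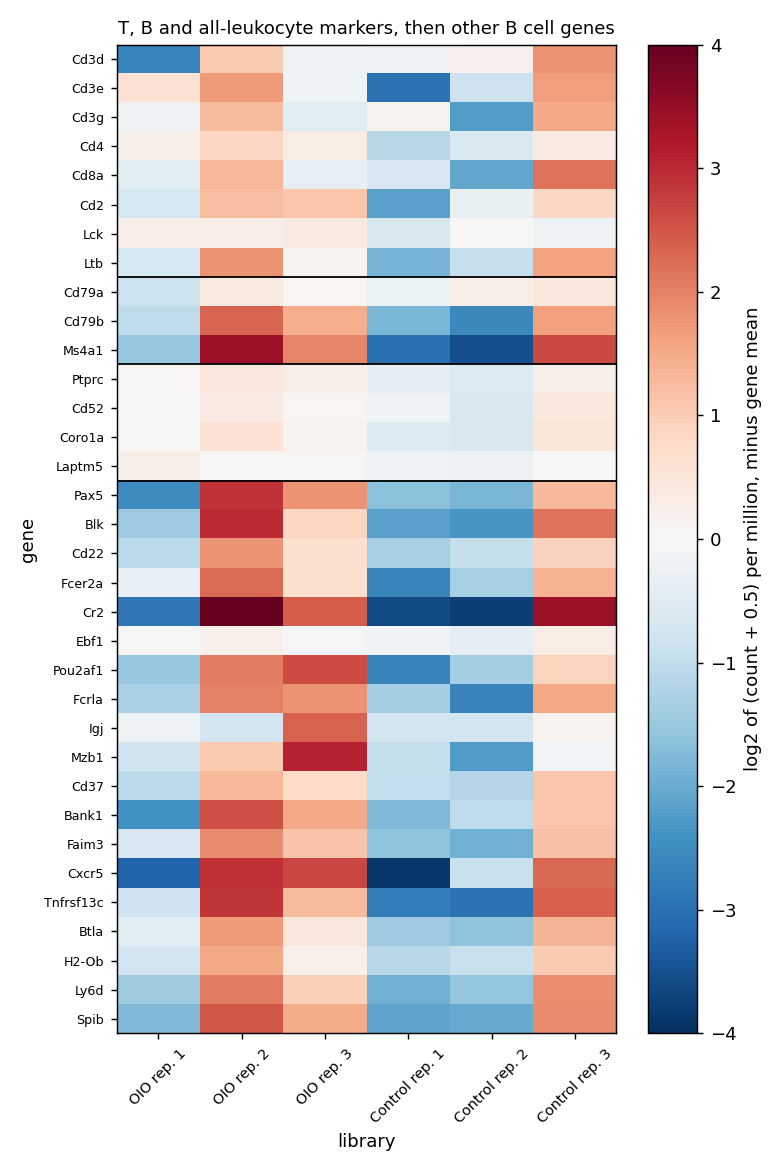
Log2 of (count plus 0.5) scaled to library size, relative to each gene's mean over the 6 libraries (red above, blue below), for T cell, B cell and all-leukocyte members and, in the lowest block, other B cell genes. Columns OIO replicate 2, OIO replicate 3 and control replicate 3 are red for nearly all B cell genes, and the rows of Cd79a, Ebf1 and Lck vary less.

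Further macrophage, class II and T cell genes held 1 call. Of 27 other macrophage genes tested, none passed and 2 had an unadjusted p under 0.05, 18 were above 0 and 9 below, and the median was 0.12. Those of lowest p were Ncf1, a subunit of the phagocyte oxidase, at 0.37 (adjusted p = 0.17), Lilra5 at 0.44 (adjusted p = 0.19) and Ly86 at 0.31 (adjusted p = 0.28). Of 11 other genes of class II presentation, Ifi30, a lysosomal thiol reductase that prepares antigens, rose. It had 32.3, 30.9 and 32.03 CPM in OIO and 23.3, 23.4 and 25.7 CPM in control libraries, a fold change of 0.39 (SE 0.066, adjusted p = 0.0077). H2-Oa at 0.92 and H2-DMa at 0.21 did not pass (adjusted p 0.42 and 0.44). Of 12 other T and natural killer cell genes tested of 30 listed, none passed and 1 had an unadjusted p under 0.05. Unlike the further B cell genes, 1 of the 12 had OIO replicates 2 and 3 and control replicate 3 as its 3 highest libraries. That was so for 3.67% of all genes tested. Of the 12, 8 were highest in control replicate 3, where 2730 of all 14903 genes tested were highest. Their lowest p were in Ccl5 at 0.99 (adjusted p = 0.15), Il2rb at 0.85 (adjusted p = 0.38) and Bcl11b at 0.77 (adjusted p = 0.44).

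Listed genes of lymph node stroma did not share 1 order of libraries. Of 8 tested, 3, or 37.5%, had OIO replicates 2 and 3 and control replicate 3 as their 3 highest libraries, as Ms4a1 did. That was so for 3.67% of all genes tested. Another 4 of the 8 were highest in OIO replicate 1, which was low in B cell RNA. Of all 14903 genes tested, 2688 were highest in that library. Madcam1, an adhesion molecule of venules, had 3.74, 1.96 and 2.30 CPM in OIO and 1.66, 2.004 and 1.25 CPM in control libraries (0.68, SE 0.29, adjusted p = 0.19). Ccl19, a chemokine of lymph node stroma, was also highest in OIO replicate 1, at 4.89 CPM, where the others had 2.18 to 3.36 CPM (adjusted p = 0.68). Glycam1, a ligand of lymph node venules, had 0, 0.718 and 1.93 CPM in OIO and 0, 0 and 0.274 CPM in control libraries (adjusted p = 0.30), and so was detected in the 3 libraries that were high for Ms4a1 and in no other. Cxcl13, a chemokine that draws B cells, had 1.01, 3.65 and 2.82 CPM in OIO and 0.349, 0.540 and 1.02 CPM in control libraries (1.99, SE 0.52, adjusted p = 0.062). Marco, a scavenger receptor of macrophages in the spleen and lymph nodes, had 11.1 CPM in control replicate 3, 2.30 and 1.58 CPM in OIO replicates 2 and 3 and at most 0.0872 CPM in the other 3 libraries. The 10 listed stromal genes summed to 243 to 280 CPM in OIO and 201 to 223 CPM in control libraries. Most of each sum was Clu, which many tissues express, so the sums do not describe the other listed genes. Clu had 238, 202 and 220 CPM in OIO and 170, 170 and 188 CPM in control libraries. It passed at 0.32 (SE 0.070, adjusted p = 0.024). Ccl21a and Ccl21b were listed at 0 in all libraries. The haemoglobin genes Hba-a1 and Hbb-b1 were also listed at 0 in all libraries, though the erythroid gene Alas2 was detected. A row of 0 is therefore not read here as absence from the tissue. Marco, Glycam1 and Ccl19 were named after their values were seen. The part of lymph node tissue in these values was not tested.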

How the data were processed

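Islet RNA was extracted with Trizol and made into libraries with an Illumina TruSeq kit, per the labels' protocols. Tools listed in the submitters' processing notes are bcl2fastq, kallisto and limma, with builds mm10 and GRCm38. The step from kallisto estimates to whole counts is not stated there. The authors deposited whole-number counts for 23420 gene symbols in 6 libraries, without normalization. The authors' deposited comparison holds log2 fold changes, p-values and, as scores, a moderated statistic and log odds, and the authors' model is not stated. Column codes have 1 more 0 than those in the labels and were matched by number.

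The main test was that of edgeR 4.0.16, run under R 4.3.3: filterByExpr, TMM scaling, a robust quasi-likelihood fit with group as the only term, 4 residual degrees of freedom, and Benjamini-Hochberg adjustment over 14903 genes, with a threshold of 0.05. The SE is the absolute fold change over the square root of F. Alternatives used DESeq2 1.42.0 and limma 3.58.1, other scalings and filters, and libraries left out. On simulated data for this comparison, 9 of 14703 unchanged genes were called. Of 50 genes given a 1.5-fold change, averaging at least 4 CPM, 92% were called. The median biological coefficient of variation, the fitted spread between libraries, was 8.70% over all genes tested. It was 9.40% for MHC class II, 14.1% for macrophage, 21.1% for all-leukocyte, 59.5% for T cell and 113% for B cell members. The 92% therefore cannot be carried over to the members, least of all to lymphocyte genes, many of them below 4 CPM.

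The members and gene lists were chosen with earlier results of these data known. Members were given in every library if called, if their groups did not overlap, or if among the 3 highest of their class, and other lists are represented by the 3 genes of lowest p. Further members are given where the text compares libraries. Gene positions and lengths came from GENCODE M21 (GRCm38), which matched 98.5% of symbols. Replicates were numbered in accession order and differed by more than counting noise (chi-square per degree of freedom 13.6 to 54.5). The values of 1 gene of the further B cell list and 1 of the acinar list are not reported here, though they count in those lists' totals.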

Additional observations from a re-analysis of the deposited data

How the results depend on the processing

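No paired analysis was possible because the labels give no replicate numbers shared between the groups. The count of members called stayed at 0 under the other scalings and filters, in limma voom and without robust estimation, and was 1 in DESeq2 and 0 to 4 with 1 library left out. With 1 library left out, 336 to 560 of all genes were higher and 112 to 303 lower. Without OIO replicate 1, 2 or 3 the higher genes numbered 401, 336 and 356 and the lower genes 112, 124 and 150. Without control replicate 2 they numbered 440 and 261, and without control replicate 1 the lower genes numbered 257. Library size alone gave 1113 lower genes against 423 with TMM, and 498 higher against 676, with the median of all genes at −0.08. The median of the B cell class ranged from 0.032 to 3.73 with 1 library left out.

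Leaving out OIO replicate 1 and control replicate 3 together gave 5 called members of 32 tested, all higher in OIO. Over all genes that fit called 142 as lower. Its count of higher genes is not given here, so the 5 members have no matching share beside them. Class medians in that fit were 4.199 for B cells and 0.71 for all-leukocyte genes. The log2 ratios of summed CPM were 1.33, 1.63 and 0.61 for T cell, B cell and all-leukocyte genes. Leaving out OIO replicate 2 and control replicate 3, chosen after seeing the data, gave 4 called members, 247 higher and 97 lower genes, and for macrophage genes a median of 0.36 and a log2 ratio of summed CPM of 0.41. These fits hold fewer libraries, and the cause of the shifts was not tested.

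Small fold changes turned sign. With library size alone Csf1r was at −0.062, Tyrobp at −0.040 and Cd3g at −0.048. In limma voom Csf1r was at −0.028 and Tyrobp at −0.0051, and without a filter Cd3g was at −0.011. Without OIO replicate 1 and control replicate 3, Emr1 was at −0.016, Csf1r at −0.032, Ccr2 at 0.035, C1qa at 0.0016 and Cd79a at 0.26. Without OIO replicate 2 and control replicate 3, Itgam was at 0.36, Cx3cr1 at 0.0059, Mrc1 at 0.45, Ccr2 at 0.51 and Aif1 at 0.15. With 1 library left out the ranges were −0.071 to 0.22 for Emr1, −0.087 to 0.10 for Csf1r, −0.46 to 0.13 for Itgam, −0.24 to 0.064 for Cx3cr1, −0.29 to 0.23 for Mrc1, −0.44 to 0.32 for Ccr2, −0.30 to 0.084 for Aif1, −0.072 to 0.18 for Tyrobp, −0.075 to 0.056 for C1qa, −0.89 to 1.196 for Cd3g, −0.60 to 2.19 for Ltb, −0.44 to 0.10 for Cd79a and −0.034 to 0.52 for Cd52. None of these passed the test in any of these fits.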

Other observations

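Granulocyte genes were low, and Ngp, a granule protein of neutrophil precursors, was higher in OIO islets. It had 0.671, 0.633 and 0.575 CPM in OIO and 0.116, 0.231 and 0.0498 CPM in control libraries, a fold change of 2.21 (SE 0.49, adjusted p = 0.025). Of 19 listed granulocyte and mast cell genes, 6 were tested, and all 6 had a fold change above 0. Cxcr2 at 1.07 (adjusted p = 0.18) and S100a8 at 0.69 (adjusted p = 0.34) did not pass. The mast cell genes Mcpt4, Fcer1a and Ms4a2 had no counts in any library.

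Ligands that recruit or sustain leukocytes held no call among 18 tested of 24 and 1 gene at an unadjusted p under 0.05, with a median of −0.038. Pdgfa was at −0.22 (SE 0.093, adjusted p = 0.19) and lower in all 3 OIO libraries. Ccl20, a chemokine too low to be tested, had 8, 9 and 15 counts in OIO and 0 in every control library, and was named after its values were seen. Cxcl9 at 0.67 and Ccl2 at 0.55 did not pass (adjusted p 0.59 and 0.59). Csf1, the growth factor of macrophages, had 48.2, 30.3 and 30.8 CPM in OIO and 29.8, 36.6 and 25.2 CPM in control libraries, so OIO replicate 1 was again the highest, and it was named after its values were seen. Of 13 other dendritic cell genes tested of 16, none passed and 2 had an unadjusted p under 0.05, with Ccl22 at 1.48, Irf4 at 1.40 and Zbtb46, a transcription factor of dendritic and endothelial cells, at −0.38 (adjusted p 0.13, 0.30 and 0.20).

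Among other cell types, the 12 endothelial genes moved in both directions, with 7 above 0 and 5 below. Tek passed at 0.29 (adjusted p = 0.0496), while Kdr, lower in every OIO library than in any control library, was at −0.18 (SE 0.057, adjusted p = 0.080) and Cldn5 at −1.11 (adjusted p = 0.36). Of 8 ductal genes, 4 were above 0 and 4 below. Krt7 passed at 0.30 (adjusted p = 0.020), and Spp1 at 0.71 and Muc1 at 0.38 did not (adjusted p 0.19 and 0.39). Krt19 was at 0.10 and Sox9 at −0.012 (adjusted p 0.93 and 0.99). None of 10 tested acinar genes passed, with Cela1 at −0.47 and Pnlip at −0.32 (adjusted p 0.70 and 0.81). Alas2, the 1 erythroid gene tested, was at 0.62 (adjusted p = 0.39). All 10 proliferation genes were above 0 and 8 passed, where 4.54% of all genes passed as higher. Among the 8 were Mcm6 at 1.02, Mcm5 at 1.88 and Tyms at 0.95 (adjusted p 0.00027, 0.0011 and 0.0014). The other 2, Mki67 at 1.48 and Top2a at 1.52, did not pass (adjusted p 0.059 and 0.058). Of the 6 islet hormone genes none passed, with Iapp at 0.20, Ins1 at 0.28 and Ppy at −0.60 (adjusted p 0.075, 0.078 and 0.22). Endothelial sums spanned 822 to 954 CPM and acinar sums 2699 to 8705 CPM, highest in control replicate 1.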
